A study of Rattus norvegicus with 4 samples.

Results

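The neurite and microtubule growth genes described here are 10 genes chosen by name, Gap43, Stmn1, Stmn2, Stmn3, Stmn4, Mapt, Map2, Map1b, Tubb3 and Dpysl3, among the 25810 genes listed in the count files. All 10 were found by symbol and all 10 passed the filter on low counts, so none had to be left out. RNA was taken from PC12 cells, a rat line that grows from a tumour of the chromaffin cells of the adrenal medulla and puts out neurites when given nerve growth factor. A pair of its clones was compared. The clone wtPC12 carries low levels of the transcriptional repressor REST and the clone hrPC12, earlier called PC12-27, arose spontaneously with high levels. Neither clone was transfected or treated for these libraries, and 2 libraries of each were sequenced. Each REST level is thus represented by 1 clone, so that REST cannot be told apart from whatever else separates the clones. The labels do not state that the 2 libraries of a clone came from separate cultures, so p values measure only the spread between these libraries.

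A neurite extends when microtubules, polymers of alpha- and beta-tubulin, grow into it and are stabilized. Stathmins bind free tubulin dimers and favour disassembly, the microtubule-associated proteins (MAPs) tau (Mapt), Map2 and Map1b bind along the polymer, collapsin response mediator proteins (Crmps, the Dpysl genes) carry tubulin dimers and respond to guidance cues, and Gap43 lies under the membrane of the growth cone, the motile tip of the neurite. Several of these genes, Tubb3 and Stmn2 among them, are commonly used as markers of neurons, whereas Stmn1 is present in many dividing cells.

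The reads counted on genes ranged from 20975027 to 27246502 per library. Values below are normalized counts, that is reads divided by the library's size with edgeR's TMM factor and brought to a common scale. A normalized count of 3.49 or less can correspond to 3 reads, the limit of detection used here. Rest had 43.0 and 132 normalized counts in the wtPC12 libraries and 964 and 915 in the hrPC12 libraries, so the clones did not overlap. Its log2 FC (hrPC12 over wtPC12) was 3.42 ± 0.56 (SE), with adjusted p = 0.0115 in edgeR, past the fold threshold used below and not under its adjusted p of 0.01. By the median difference, the wtPC12 libraries lay further apart than those of hrPC12. Over the 11634 genes with at least 50 normalized counts, the median absolute log2 difference between replicates was 0.36 in wtPC12 and 0.15 in hrPC12. The 5th and 95th percentiles of the log2 ratio of replicate 2 to replicate 1 were −0.68 and 1.33 in wtPC12. In hrPC12 they were −0.93 and 0.31, so the lower tail was longer there. Markers were counted by the thresholds used below, an adjusted p below 0.01 in edgeR with a log2 FC beyond 2. That rule called 5.46% of all tested genes lower and 4.84% higher. Of the markers of chromaffin cells 8 of 12 tested were lower in hrPC12 and none higher. Their summed level was 909200 to 1067800 in wtPC12 and 51250 to 55763 in hrPC12. Of 10 tested fibroblast and mesenchymal markers 7 were higher, and their sum went from 16893 to 18959 up to 103920 to 109480. At an adjusted p under 0.05 in edgeR 7 were higher and 2 lower, where all genes gave 16.1% and 16.3%. In the hrPC12 sums 1 gene gave 83801 and 88143. Another gave 17929 and 16186 of the wtPC12 sums and was 1 of the 2 lower genes. Leukocyte markers (1 of 4 tested higher, 8 others too low to test, Ptprc at no more than 1 read) summed to 53.6 to 66.3 and 454 to 527. At an adjusted p under 0.05 in edgeR 3 of the 4 were higher, where all genes gave 16.1%. In the hrPC12 sums 1 gene gave 346 and 412. The glial marker Sox10 had 0 reads in all libraries. The part of these other markers in the values below was not tested. In such bulk RNA, fewer cells that express a gene and less RNA per cell cannot be told apart.

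In hrPC12, 4 of the 10 genes fell and none rose by the study's thresholds, which ask for a log2 FC beyond 2 together with an adjusted p below 0.01 (edgeR's quasi-likelihood test). The same rule called 5.46% of the 13726 genes tested lower, 4.84% higher and 10.3% in either direction. The 10 genes were chosen with earlier results of these data known, so these shares give a background and no test. The 4 genes were Stmn3, Stmn2, Mapt and Tubb3, with fitted levels 55.6, 40.4, 31.7 and 4.04 times lower. Another 2 genes, Stmn4 and Dpysl3, differed by more than the fold threshold with an adjusted p between 0.01 and 0.05, and the other 4, Gap43, Map1b, Stmn1 and Map2, had adjusted p values from 0.194 to 0.533. With the adjusted p below 0.05 as the only rule, 6 of the 10 lay lower in hrPC12 and 0 higher (0 higher also with DESeq2), where all genes gave 16.3% and 16.1%. At an unadjusted p under 0.05 the counts were again 6 and 0, where all genes gave 22.7% and 23.6%. The log2 FC of the 10 genes ran from −5.80 to 0.47 with a median of −2.05, beside a median of 0.06 over all tested genes. Both hrPC12 libraries lay below both wtPC12 libraries for 7 of the 10 genes and above them for none, against 35.6% and 37.9% of all tested genes (73.5% without overlap in either direction), and the clones overlapped for the remaining 3.

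**Figure D1:**
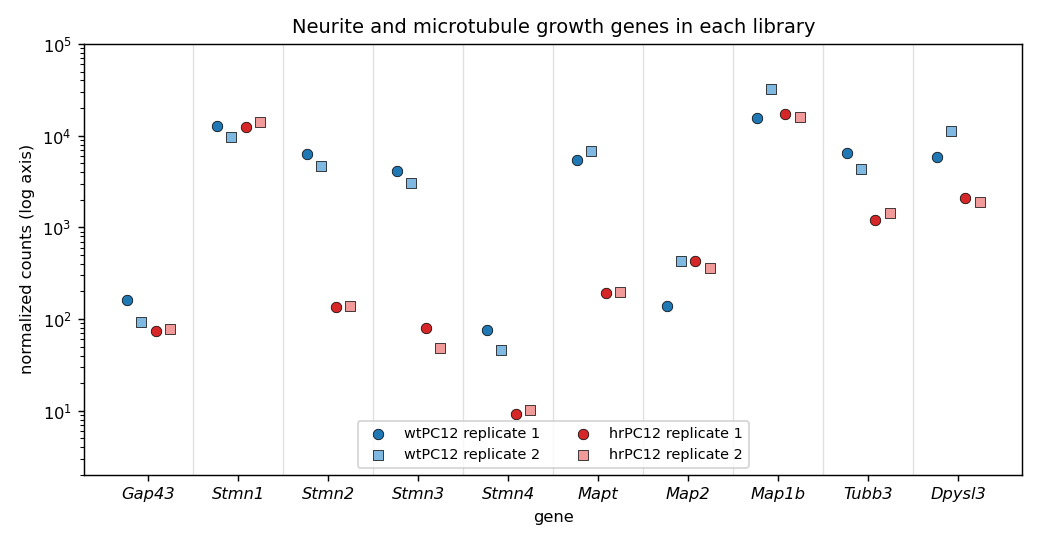
Normalized counts (log axis) of the 10 genes in each of the 4 libraries, with wtPC12 in blue and hrPC12 in red. Stmn2, Stmn3, Mapt and Tubb3 sit clearly lower in both hrPC12 libraries, and the wtPC12 points of Map2, Map1b and Dpysl3 stand apart from each other.

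**Figure D2:**
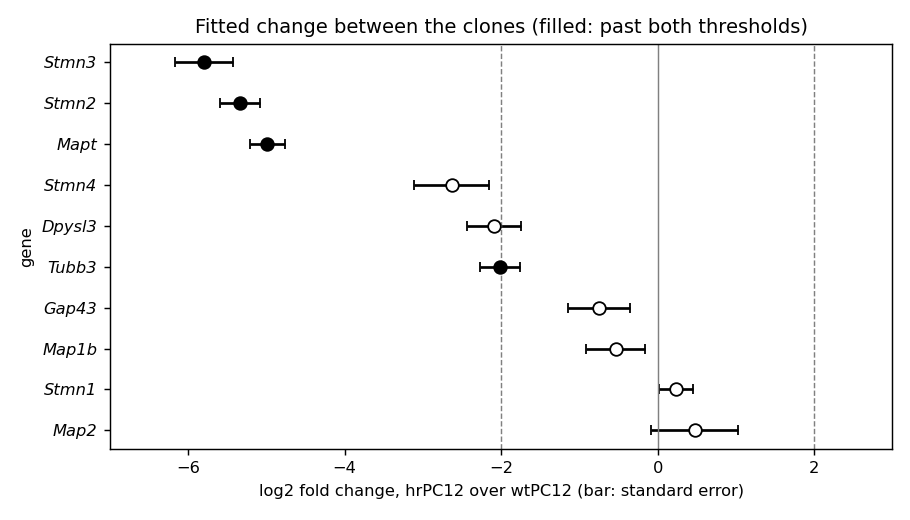
Fitted log2 FC of the 10 genes (hrPC12 over wtPC12) with its standard error from edgeR, filled where both thresholds were passed and with dashed lines at 2 in either direction. The values run from −5.80 for Stmn3 to 0.47 for Map2, and Tubb3 lies at the dashed line.

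The stathmins were the members that differed most from each other. Stmn1, the stathmin of many proliferating cells, was the most abundant of the 4 in reads and did not pass the test, and Stmn2 and Stmn3, 2 stathmins that are enriched in neurons and anchored to membranes, fell 40.4 and 55.6 times. Stmn2 (SCG10), a protein of the Golgi and of growth cones, had 6342 and 4651 normalized counts in the wtPC12 libraries and 135 and 138 in the hrPC12 libraries. The clones did not overlap, and the hrPC12 mean was 2.48% of the wtPC12 mean. Its log2 FC was −5.34 ± 0.26 (SE), with adjusted p = 0.000427 in edgeR.

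Stmn3 (SCLIP) had 4142 and 3033 normalized counts in wtPC12 and 79.6 and 48.6 in hrPC12, again without overlap. The log2 FC was −5.80 ± 0.37 (SE), with adjusted p = 0.000767 in edgeR, and hrPC12 kept 1.79% of the wtPC12 mean. Its 2 hrPC12 libraries differed more than those of any other member, with a log2 ratio of replicate 1 to replicate 2 of 0.71. The 6 genes flanking it had a median of 0.02 for the same ratio. They were taken in chromosome order on the assembly GRCr8, which is not the build of the counts. Only genes matched by symbol and with at least 50 normalized counts entered this order. For the other 8 members placed in this way that median lay between −0.10 and 0.23. Taken as replicate 2 to replicate 1, the log2 ratio of Stmn3 was −0.71 in hrPC12. Over the 11634 genes with at least 50 normalized counts, the 5th and 25th percentiles of that ratio were −0.93 and −0.26. Without hrPC12 replicate 1 the log2 FC of Stmn3 was −6.20.

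Stmn4 (RB3), which is largely restricted to neural tissue, was the least abundant member, with 75.6 and 46.4 normalized counts in wtPC12 and 9.31 and 10.1 in hrPC12. These rest on 65, 45, 11 and 10 reads. The clones did not overlap. Its log2 FC of −2.63 ± 0.48 (SE) was past the fold threshold, and its adjusted p of 0.0149 from edgeR was not under 0.01. It passed with DESeq2, with RLE in place of TMM factors, with totals as the only scaling and with no filter, at adjusted p values from 0.00348 to 0.00824.

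Stmn1 had 12864 and 9755 normalized counts in wtPC12 and 12480 and 14091 in hrPC12. The clones overlapped, since wtPC12 replicate 1 lay above hrPC12 replicate 1. The log2 FC was 0.23 ± 0.21 (SE), with adjusted p = 0.429 in edgeR, which does not show that the levels are equal. RefSeq lists 4 pseudogenes under the symbol Stmnl-ps, and reads shared with a near-identical copy were not counted on a gene, so the level of Stmn1 is uncertain to that extent.

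Within a library, Stmn2 had 0.493 and 0.477 reads per read of Stmn1 in wtPC12 and 0.0108 and 0.00977 in hrPC12. This ratio, which does not depend on a scaling factor, was 47.2 times lower in hrPC12. For Stmn3 to Stmn1 the ratio was 67.5 times lower and for Stmn4 to Stmn1 7.22 times lower. In each of the 3 ratios both hrPC12 libraries lay below both wtPC12 libraries (exact permutation test, 2-sided, p = 0.333, the smallest p that 2 against 2 libraries can give).

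The shares of the stathmin reads show the same values as a composition, which was added after the values were seen and is given without a test. Stmn1 made up 54.9% (95% Wilson interval 54.2 to 55.6) and 55.8% (55.0 to 56.5) of the reads of the 4 genes in wtPC12. In hrPC12 it made up 98.2% (98.0 to 98.4) and 98.6% (98.4 to 98.8). Such intervals cover counting error only. The sum of the 4 genes was 23424 and 17485 normalized counts in wtPC12 and 12703 and 14287 in hrPC12.

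**Figure D3:**
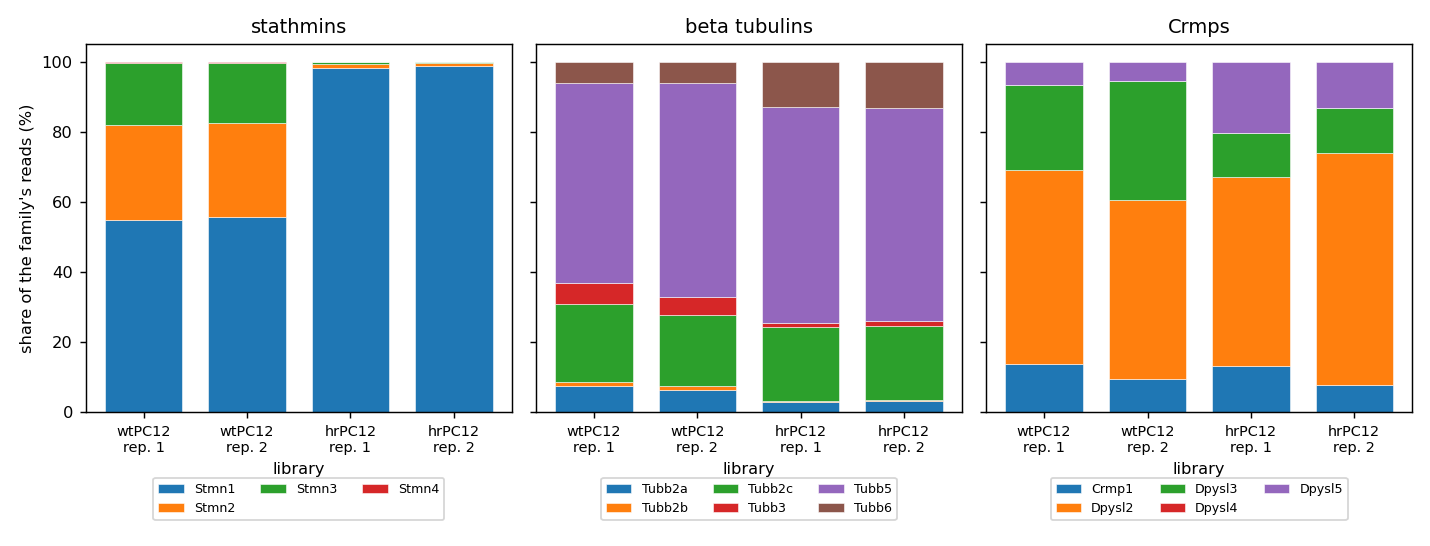
Share of the reads of 3 gene families (%, y axis) that fell on each gene in each library, as stacked bars that add up to 100. Stmn1 takes 54.9% and 55.8% of stathmin reads in wtPC12 and over 98% in hrPC12, while Tubb5 keeps 57.1% to 61.6% of beta-tubulin reads in all 4 libraries.

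Promoter sequences are shown for Stmn1 and Stmn3, since these 2 stathmins stood apart in hrPC12, and for Tubb3, which fell with Stmn3. RefSeq's table held a promoter for 6 of the 10 genes (Stmn1, Stmn3, Map2, Map1b, Tubb3 and Dpysl3, the last with 2 windows) and none was matched for Gap43, Stmn2, Stmn4 and Mapt. Each sequence is the 250 bases before the transcript's start on the assembly GRCr8, which is not the build of the counts, written 5′ to 3′ on the strand of the gene. Capitals mark a GC box (GGGCGG on either strand) and the left arm of the REST element RE-1 (CAGCACC on either strand).
Stmn1, GRCr8 chr5:151964929-151965178, plus strand: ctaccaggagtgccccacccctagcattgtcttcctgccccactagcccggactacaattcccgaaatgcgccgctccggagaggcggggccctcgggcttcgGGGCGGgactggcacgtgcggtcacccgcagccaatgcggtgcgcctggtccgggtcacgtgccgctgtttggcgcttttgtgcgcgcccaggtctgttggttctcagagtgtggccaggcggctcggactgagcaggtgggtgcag
Stmn3, GRCr8 chr3:188802495-188802744, minus strand: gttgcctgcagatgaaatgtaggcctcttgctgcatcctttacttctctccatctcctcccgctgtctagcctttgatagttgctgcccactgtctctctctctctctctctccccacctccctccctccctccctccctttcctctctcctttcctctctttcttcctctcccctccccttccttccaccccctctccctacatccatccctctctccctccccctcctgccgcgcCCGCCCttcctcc
Tubb3, GRCr8 chr19:68365437-68365686, plus strand: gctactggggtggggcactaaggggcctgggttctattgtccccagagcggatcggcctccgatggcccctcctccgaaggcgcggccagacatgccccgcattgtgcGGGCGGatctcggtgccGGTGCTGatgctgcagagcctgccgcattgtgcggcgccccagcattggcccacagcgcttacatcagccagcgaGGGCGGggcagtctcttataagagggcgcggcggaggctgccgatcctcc

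Both strands were searched for the left arm of RE-1, CAGCACC, for its right arm, GGACAG, for the arms joined as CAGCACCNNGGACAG, which holds both, for the GC box and for the TATA box, spelled TATAAA. The left arm was present once in the Tubb3 window, 125 to 119 bases before the start on the minus strand, and in 5.43% of all 33469 windows of that length. GGACAG was present once, in 1 of the 2 Dpysl3 windows, and in 18.2% of all windows. The joined element was in none of the 7 windows of the members and in 0.0269% of all. A GC box was in the windows of Stmn1, Stmn3, Tubb3 and Dpysl3, and in 30.5% of all. TATAAA was in the Map1b window and in 12.9% of all. These are matches of letters within 250 bases and describe no binding, and a missing match says only that the letters are not in this window.

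Tubb3, the beta-tubulin class that is used as a marker of neurons, had 6421 and 4310 normalized counts in wtPC12 and 1214 and 1440 in hrPC12. The clones did not overlap, and the lower of the wtPC12 libraries was still well above both hrPC12 libraries. The log2 FC was −2.02 ± 0.26 (SE), with adjusted p = 0.00542 in edgeR, just past the threshold of 2. With library totals alone it was −1.94, and when replicate 1 of wtPC12 or of hrPC12 was left out it was −1.73 and −1.90, so that the call ended while the adjusted p stayed under 0.01. Relative to Tubb5, a beta-tubulin of most cell types, Tubb3 had 0.101 and 0.0869 reads per read in wtPC12 and 0.0205 and 0.0219 in hrPC12, a ratio 4.43 times lower (exact permutation test, 2-sided, p = 0.333). Of the reads on 6 beta-tubulin genes, Tubb3 took 5.79% (95% Wilson interval 5.64 to 5.94) and 5.30% (5.15 to 5.46) in wtPC12 and 1.26% (1.20 to 1.33) and 1.33% (1.27 to 1.40) in hrPC12. Tubb5 itself had 63307 and 49603 normalized counts in wtPC12 and 59177 and 65766 in hrPC12, with a log2 FC of 0.15.

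Mapt codes for tau, the main MAP of axons. It had 5367 and 6877 normalized counts in wtPC12 and 190.5 and 195 in hrPC12, without overlap, and hrPC12 kept 3.15% of the wtPC12 mean. Its log2 FC was −4.99 ± 0.23 (SE), with adjusted p = 0.000376 in edgeR, the smallest adjusted p of the 10 genes. Relative to Map4, the MAP of most non-neuronal cells, Mapt had 0.440 and 0.548 reads per read in wtPC12 and 0.0151 and 0.0155 in hrPC12, a ratio 32.1 times lower (exact permutation test, 2-sided, p = 0.333). Map4 was almost level across the 4 libraries, from 12187 to 12632 normalized counts, with a log2 FC of 0.03 ± 0.17 (SE).

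The other MAPs did not follow Mapt. Map2, the MAP of dendrites and cell bodies, had 139.6 and 427 normalized counts in wtPC12 and 425 and 361 in hrPC12. The clones overlapped, with wtPC12 replicate 2 highest and wtPC12 replicate 1 lowest. Its log2 FC was 0.47 ± 0.55 (SE), with adjusted p = 0.533 in edgeR, and it turned to −0.15 when wtPC12 replicate 1 was left out and became 1.49 when replicate 2 was. The direction of Map2 therefore rests on which wtPC12 library is used.

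Map1b, an early MAP of growing axons, had 15563 and 32594 normalized counts in wtPC12 and 17160 and 15975 in hrPC12. Only wtPC12 replicate 2 stood apart, and the other 3 libraries differed by little. The log2 FC was −0.54 ± 0.37 (SE), with adjusted p = 0.306 in edgeR, and leaving out wtPC12 replicate 2 turned it to 0.09, whereas leaving out replicate 1 gave −1.01. The ratio of Map1b to Map4 behaved alike, at 1.28 and 2.59 in wtPC12 and 1.36 and 1.27 in hrPC12 (exact permutation test, 2-sided, p = 0.667), and that of Map2 to Map4 gave p = 1 in the same exact test.

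**Figure D4:**
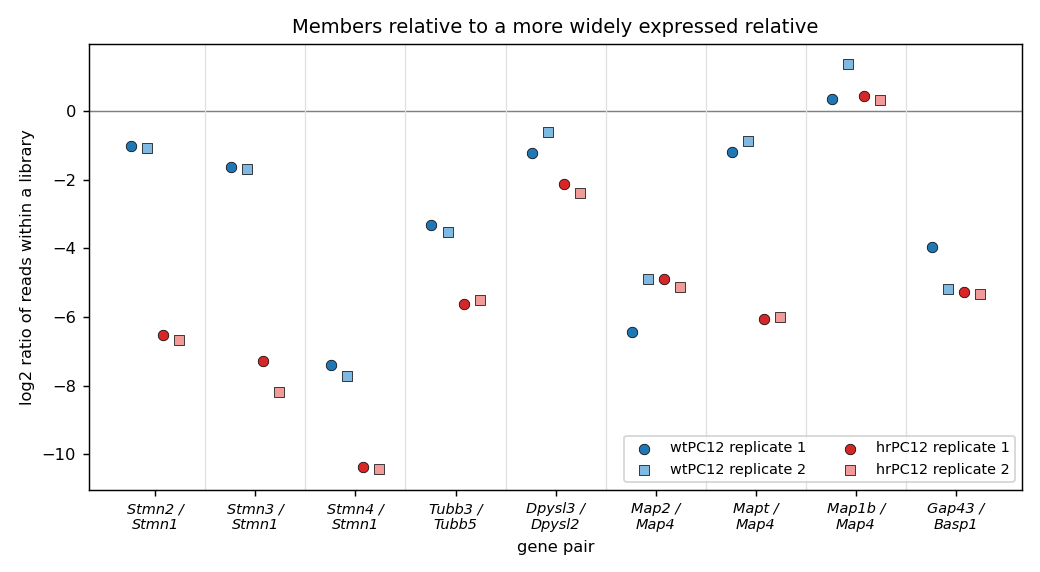
Log2 ratio of the reads of each member to those of a more widely expressed relative within the same library (y axis), for 9 pairs and 4 libraries. The ratios of Stmn2, Stmn3, Stmn4, Tubb3, Dpysl3 and Mapt are lower in both hrPC12 libraries, and for Map2 and Map1b the clones overlap. That of Gap43 is also lower in both hrPC12 libraries, with wtPC12 replicate 2 close to them.

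Dpysl3 (Crmp4), a Crmp of growing neurons, had 5850 and 11150.0 normalized counts in wtPC12 and 2078 and 1906 in hrPC12. Both hrPC12 libraries lay below both wtPC12 libraries, which themselves differed 1.91-fold. The log2 FC was −2.09 ± 0.34 (SE), past the fold threshold, and the adjusted p of 0.0113 from edgeR was just over 0.01. It passed under the same 4 changes as Stmn4 (adjusted p from 3.24e-08 to 0.00477), and also when any library but wtPC12 replicate 2 was left out, without which its log2 FC was −1.55. Dpysl2 (Crmp2), the most abundant Crmp in reads, had 13529 and 16786 normalized counts in wtPC12 and 9020.0 and 9957 in hrPC12, and its log2 FC was −0.68 ± 0.20 (SE), with adjusted p = 0.0531 in edgeR. Per read of Dpysl2, Dpysl3 had 0.432 and 0.664 reads in wtPC12 and 0.230 and 0.192 in hrPC12, a ratio 2.55 times lower (exact permutation test, 2-sided, p = 0.333). Its share of the reads of the 5 Crmp genes was 24.0% (95% Wilson interval 23.4 to 24.6) and 33.96% (33.4 to 34.5) in wtPC12 and 12.4% (11.9 to 12.9) and 12.7% (12.1 to 13.2) in hrPC12. Such a share also depends on the other Crmps. That of Dpysl5, named after its values were seen, was 6.66% and 5.43% in wtPC12 and 20.4% and 13.2% in hrPC12. The log2 FC of Dpysl5 was 0.67, with adjusted p = 0.14 in edgeR.

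Gap43, the growth cone protein that is a classical marker of axon growth, was low in both clones. It had 161 and 92.7 normalized counts in wtPC12 and 73.7 and 76.9 in hrPC12, on 138, 90, 87 and 76 reads. The hrPC12 libraries lay below those of wtPC12, though wtPC12 replicate 2 was closer to hrPC12 than to wtPC12 replicate 1. Its log2 FC was −0.75 ± 0.39 (SE), with adjusted p = 0.194 in edgeR. Leaving out wtPC12 replicate 2 gave −1.09 and leaving out replicate 1 gave −0.33. Basp1, a growth cone protein of the same kind of function, had 2495 and 3389 normalized counts in wtPC12 and 2867 and 3087 in hrPC12 (log2 FC 0.02, adjusted p = 0.954 from edgeR). The ratio of Gap43 to Basp1 was 0.0643 and 0.0274 in wtPC12 and 0.0257 and 0.0249 in hrPC12 (exact permutation test, 2-sided, p = 0.333). Both hrPC12 libraries lay below both wtPC12 libraries, and wtPC12 replicate 1 alone stood apart.

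The difference between the wtPC12 libraries did not run the same way in all members. Map2, Map1b, Dpysl3 and Mapt were higher in wtPC12 replicate 2, by 3.06, 2.09, 1.91 and 1.28 times. Gap43, Stmn4, Tubb3, Stmn3, Stmn2 and Stmn1 were higher in wtPC12 replicate 1, by 1.73, 1.63, 1.49, 1.37, 1.36 and 1.32 times. Of the 11634 genes with at least 50 normalized counts, 97.1% had a lower ratio of replicate 2 to replicate 1 than Map2, 92.3% a lower one than Map1b and 90.0% a lower one than Dpysl3, and 2.68% a lower one than Gap43. For Stmn4 and Tubb3 that share was 4.46% and 8.92%. Members with large replicate differences in wtPC12 were thus at both ends of the range of all genes. In Stmn2, Stmn3 and Mapt the difference between the clones, 31.7 times or more, was far larger than any difference between their replicates. The cause of the difference between the wtPC12 libraries was not tested, since the count files hold neither a measure of RNA quality nor the length of a gene. The wtPC12 levels of Map2, Map1b, Dpysl3, Gap43, Stmn4 and Tubb3 are uncertain by the differences given above.

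Each library was left out in turn, with edgeR's fit assuming that a lone library varies like the pair of the other clone. Without wtPC12 replicate 1, without hrPC12 replicate 1 and without hrPC12 replicate 2, the numbers of members past both thresholds were 4, 4 and 5. Without wtPC12 replicate 2 none was, and none of the genes in the whole table was either, where edgeR's smallest adjusted p was 0.0134. There 7 members were lower and 1, Map2, was higher at an unadjusted p under 0.05, beside 26.2% and 23.8% of the 13590 genes tested in that fit. The log2 FC of Stmn2, Stmn3, Mapt and Tubb3 were −5.54, −6.01, −4.80 and −2.27. DESeq2 on the same 3 libraries, a fit chosen after this was seen, called the 4 genes Stmn2, Stmn3, Mapt and Tubb3 (log2 FC −5.62, −6.09, −4.87 and −2.35) and no other member.

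Other genes of microtubules and growth cones were followed in 6 lists of 148 genes in all, of which 116 were found by symbol and 105 tested. Past both thresholds 8 were lower and 2 higher in hrPC12, 9.52% of those tested, where 10.3% of all tested genes passed in either direction. Over the 105 genes the log2 FC had a median of −0.29. The lists were written with earlier results of these libraries known and are given as counts.

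**Figure D5:**
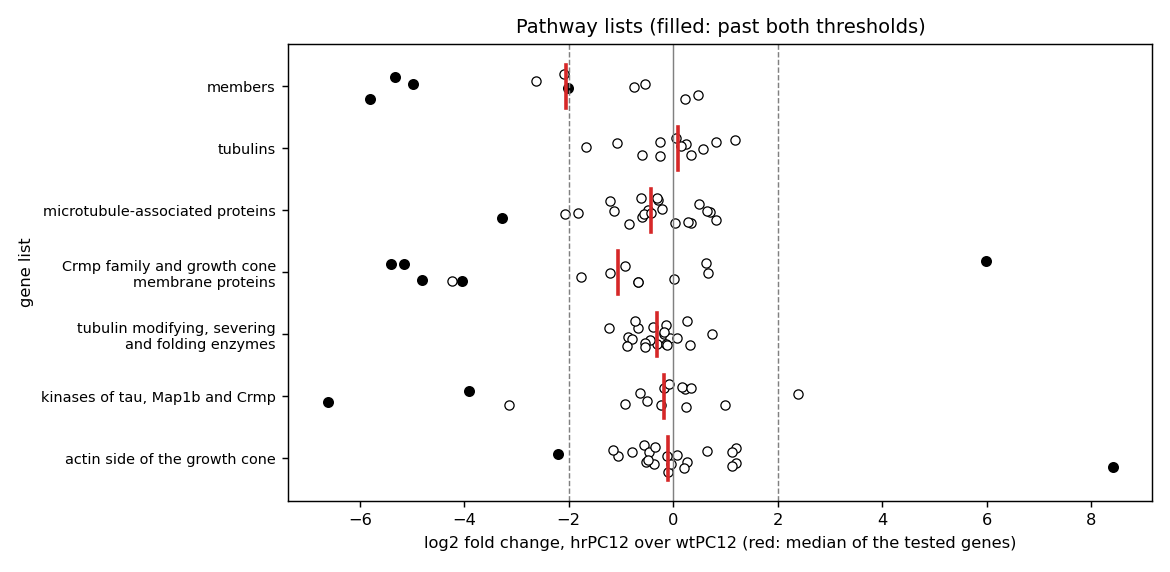
Fitted log2 FC (hrPC12 over wtPC12, x axis) of the 10 members and of the tested genes of 6 lists, 1 point per gene, filled where both thresholds were passed, with the median in red. Medians of the 6 lists lie between −1.06 and 0.10, and points of Sncg, Camk4 and Nrgn are fitted values of genes at the limit of detection in 1 clone.

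Of the tubulins other than Tubb3, 12 of the 14 found were tested and none passed both thresholds in edgeR or in DESeq2, with 2 lower and 2 higher at an unadjusted p under 0.05 in edgeR, where all genes gave 22.7% and 23.6%. The median log2 FC was 0.10. Tubb2b (log2 FC −1.66, adjusted p = 0.00890 from edgeR), Tubb2a (−1.07, adjusted p = 0.0431) and Tubb6 (1.19, adjusted p = 0.0178) were the genes with an adjusted p under 0.05, and are named after their values were seen. RefSeq lists 22 pseudogenes under Tuba symbols and 4 under Tubb symbols, so single tubulins are uncertain where reads were shared.

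Of the other MAPs and microtubule end-binding proteins 21 were tested, and 1, Clip3, passed, 4.76% beside 10.3% of all tested genes. At an unadjusted p under 0.05 in edgeR 8 of the list were lower and 1 higher, where all genes gave 22.7% and 23.6%. Clip3, a linker of the CLIP family, fell from 1999 and 2739 to 255 and 235 normalized counts (log2 FC −3.27 ± 0.26, SE). The median of the list was −0.42, and Map4 was its most abundant gene. No enzyme that modifies, cuts or folds tubulin passed among the 21 tested in edgeR or in DESeq2, with 7 lower and 0 higher at an unadjusted p under 0.05 in edgeR, beside the same shares of all genes, and a median log2 FC of −0.32. The most abundant, Agtpbp1, which removes glutamates from tubulin tails, had a log2 FC of −0.73 (adjusted p = 0.0240 from edgeR). Genes without a read in 1 clone were not tested, which left out Fign, of the fidgetin family of microtubule-severing proteins, and Nav3, a neuron navigator of the MAP list, both named after their values were seen. Fign had 0 reads in both wtPC12 libraries and 40 and 36 in hrPC12, at least 10.7-fold higher against a limit of 3 reads per library. Nav3 had 0 reads in both wtPC12 libraries and 26 and 29 in hrPC12, at least 7.80-fold higher. Both passed as higher when every gene with a read was tested and with edgeR's filterByExpr, at adjusted p values from 0.00137 to 0.00838.

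The list of Crmps and growth cone membrane proteins held the most genes that passed, 4 lower and 1 higher of 14 tested, with a median log2 FC of −1.06. That was 35.7%, beside 10.3% of all tested genes. At an unadjusted p under 0.05 in edgeR 10 were lower and 1 higher, where all genes gave 22.7% and 23.6%. Ncam1, a neural adhesion molecule, had 394 and 800.4 normalized counts in wtPC12 and 17.8 and 10.1 in hrPC12 (log2 FC −5.39 ± 0.56, SE). Fez1, an adaptor for kinesin transport, had 1498 and 1117 in wtPC12 and 32.2 and 41.5 in hrPC12 (log2 FC −5.15 ± 0.32, SE). Gprin1, a partner of G proteins in neurite growth, had 1217 and 1591 in wtPC12 and 45.7 and 53.6 in hrPC12 (log2 FC −4.82 ± 0.29, SE). The fourth gene was L1cam (log2 FC −4.04), named after its values were seen. Sncg, gamma-synuclein, moved the other way, with 2 reads and 0 reads in wtPC12 and 71.1 and 84.0 normalized counts in hrPC12, at least 23.6-fold higher against a limit of 3 reads per library.

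Of the kinases that act on tau, Map1b and Crmps, 15 were tested and 2 passed, both lower, with a list median of −0.18. That was 13.3%, beside 10.3% of all tested genes. At an unadjusted p under 0.05 in edgeR 6 kinases were lower and 2 higher, where all genes gave 22.7% and 23.6%. Camk2b, a calmodulin-dependent kinase subunit of neurons, fell from 1822 and 1757 to 112 and 126 normalized counts (log2 FC −3.91 ± 0.23, SE), and Camk4 had 62.8 and 52.5 in wtPC12 and was at the limit of detection in hrPC12, at least 20.7-fold lower. Gsk3a, the most abundant, had a log2 FC of −0.49. Of 22 genes on the actin side of the growth cone 1 was lower and 1 higher, 9.09% in all, with a median of −0.11. At an unadjusted p under 0.05 in edgeR 6 of these genes were lower and 5 higher, beside the same shares of all genes. Coro1a, a coronin, fell with a log2 FC of −2.20 ± 0.23 (SE). Ablim3, an actin-binding LIM protein, rose from 2.33 and 5.15 to 1379.9 and 1316 normalized counts, a log2 FC of 8.42 ± 0.40 (SE). Actb, the most abundant of the list, had a log2 FC of 0.65 (adjusted p = 0.0805 in edgeR).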

How the data were processed

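RNA of the clones wtPC12 and hrPC12 was measured by RNA-Seq in 2 libraries each, grouped by the labels' source names. The authors aligned paired-end reads to rn4 with TopHat2 (version 2.0.4 in the submitters' processing notes, which also name HTSeq 0.5.3 and DESeq 1.9.12) and deposited raw read counts per gene, without normalization. Their table of mean counts, fold changes and p values of the clone comparison was not used. Reads outside genes, in several genes or aligned more than once were left out, so that 37.9% to 41.3% of reads were used.

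Computations used R 4.3.3 and edgeR 4.0.16 with TMM factors. Tests covered the 13726 of 18416 genes with a read whose mean normalized count was 5 or more and that had reads in both clones, with glmQLFit (legacy option on) and glmQLFTest, with Benjamini-Hochberg adjustment over all of them. Thresholds were those of the study, and DESeq was replaced by edgeR. Where every library of a clone had 3 reads or fewer, the fold change is given as a bound. Ratios within libraries were compared by an exact permutation test. The scripts were tested on simulated data. Alternatives tried were RLE factors, library totals, other filters, DESeq2 1.42.0, glmTreat, the legacy option off, an adjusted p under 0.05, a prior count of 2 and each library left out. Named genes are the members, Rest, the relatives in the ratios and, in each list, up to 3 lowest and 3 highest genes past both thresholds and 50 or more normalized counts in 1 clone, and the most abundant gene. Members and lists were chosen with earlier results of these data known. Transcript lengths were not used, so levels are not compared between genes except as reads. All count columns were used (0 left out). The results of 2 marker genes are not reported here.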

Additional observations from a re-analysis of the deposited data

How the results depend on the processing

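Over 9 settings and each library left out in turn, the direction of Stmn2, Stmn3, Stmn4, Mapt, Tubb3, Dpysl3, Gap43 and Stmn1 stayed the same in edgeR's fits. Stmn2, Stmn3 and Mapt passed both thresholds in all 9 settings, Tubb3 in 7, and Stmn4 and Dpysl3 in 5 each. The calls that changed were, in log2 FC, Stmn4 and Dpysl3, which passed with RLE factors (−2.68 and −2.13), library totals (−2.56 and −2.05), every gene with a read (−2.63 and −2.09), DESeq2 (−2.69 and −2.13) and an adjusted p under 0.05 (−2.63 and −2.09), and Tubb3, which did not pass with library totals (−1.94) or with glmTreat (−2.02), which tests against a fold change of 4.00. The genes called in the whole table were 749 lower and 665 higher, against 353 and 321 with glmTreat. Those higher were 1127 with every gene and 1088 at an adjusted p under 0.05. In the 6 lists, DESeq2 called 2 MAP genes lower instead of 1 and 3 kinases lower and 1 higher instead of 2 and 0. An adjusted p under 0.05 gave the same counts in these 2 lists. RLE factors, library totals and every gene with a read gave the same counts of kinases. With glmTreat no gene on the actin side was lower and 1 kinase was lower instead of 2. The Crmp and growth cone list then had no higher gene, so that Sncg did not pass. With every gene or filterByExpr 1 MAP (Nav3) and 1 tubulin enzyme (Fign) were higher instead of 0. RLE factors moved the median log2 FC of all genes by −0.04 and library totals by 0.06.

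With each library left out in turn, the log2 FC ranged from −5.54 to −5.12 for Stmn2, −6.20 to −5.54 for Stmn3, −5.19 to −4.80 for Mapt, −2.27 to −1.73 for Tubb3, −2.52 to −1.55 for Dpysl3, −1.01 to 0.09 for Map1b and −0.15 to 1.49 for Map2. The number of members called ranged from 0 to 5, and of all genes from 0 to 859 lower and 0 to 962 higher, with 0 in each case only without wtPC12 replicate 2. There edgeR's quasi-likelihood test gave 6798 of 13590 genes an unadjusted p under 0.05, and DESeq2, added after this was seen, called 735 lower and 919 higher, among them 4 members, with a log2 FC of −0.03 for Stmn1 and 0.01 for Map1b. In edgeR's fits and in the ratios, the reversals were Map2 (−0.15) and its ratio to Map4 (−0.13) without wtPC12 replicate 1, and Map1b (0.09) and its ratio to Map4 (0.04) without wtPC12 replicate 2. The ratios without the other wtPC12 library were 1.44 for Map2 and −0.98 for Map1b. Stmn1 (−0.03) and Map1b (0.01) also reversed with DESeq2 without wtPC12 replicate 2. The cause was not tested. No paired analysis was possible because the labels do not tie a library of one clone to a library of the other, and the replicate numbers used here only follow the order of the records. With 2 libraries per clone an exact test of 1 gene cannot go below p = 0.333.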
